A study of Danio rerio with 15 samples.

Results

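The genes described here were those whose transcripts were low in mpeg1-GFP+ cells of every fish without functional Csf1 receptors, at both juvenile ages sampled. A gene was a member where the highest CPM (counts scaled to the library total) of the 6 csf1rDM fish lay below the lowest of the 6 control fish, the control mean reached 10 CPM, and the ratio of (control CPM + 1) to (csf1rDM CPM + 1) was at least 4 at 33 dpf and at 1.5 mpf. Of 35117 genes in the table, 189 met this rule, after leaving out csf1ra, csf1rb, marco and CEBPA. The values of csf1rDM and control fish thus chose the members, and are given below as a description without a test.

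The libraries came from 15 juvenile zebrafish, each dissociated whole with trypsin, from which GFP+ cells with myeloid scatter were sorted. The 3 csf1rDM fish of 33 dpf (csf1raj4e1/j4e1;csf1rbre01/re01, both zebrafish Csf1r genes mutated) were set against 3 wildtype fish of that age, and 3 csf1rDM fish and 3 il34-/- fish (il34re03/re03, lacking the Csf1r ligand Il34) of 1.5 mpf against 3 wildtype fish of that age. All fish carried tg(mpeg-GFP), a reporter driven by the mpeg1 promoter, which is active in macrophages and also in metaphocytes, macrophage-like cells of ectodermal origin in the skin. The older fish are labelled 5 months in their titles but 1.5 mpf in their recorded stage, which is used here. Replicates were separate fish, and the labels give no batch.

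Csf1r is a receptor tyrosine kinase on cells of the macrophage lineage. Its ligands Csf1 and Il34 act on survival, proliferation and differentiation of these cells, and zebrafish carry a pair of receptor genes, csf1ra and csf1rb. Tissue macrophages are known for taking up dead cells and debris through scavenger and phosphatidylserine receptors, for producing complement C1q, and for secreting proteases and matrix proteins.

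Library totals ran from 5488201 to 106374902 counts, so that 3 counts, taken as the smallest visible level, stood for 0.0282 to 0.547 CPM. The targeted gene csf1ra had 0, 31.8 and 0.0768 CPM in csf1rDM fish and 182, 202 and 196 CPM in control fish at 33 dpf. At 1.5 mpf it had 0, 0.0328 and 0 CPM in csf1rDM fish, 45.6, 23.7 and 74.7 CPM in il34-/- fish and 188, 107 and 192 CPM in control fish. The csf1rDM fish with 31.8 CPM was replicate 2 at 33 dpf, whose library was also the deepest. The il34 transcript itself was low in all fish and overlapped between the genotypes, at 6.28 to 20.2 CPM in il34-/- fish and 10.7 to 20.9 CPM in control fish of 1.5 mpf. The pan-leukocyte gene ptprc lay between 600.5 and 752 CPM in the csf1rDM fish, 873 and 932 CPM in il34-/- fish, and 782 and 952 CPM in control fish. The most abundant of the identifiers named MPEG1 lay between 4018 and 8405 CPM in csf1rDM fish, 3705 and 4806 CPM in il34-/- fish, and 2599 and 4285 CPM in control fish. Another identifier of that name, at far lower levels, went the other way. At 33 dpf it had 25.9 to 55.2 CPM in csf1rDM fish and 65.4 to 107 CPM in control fish. At 1.5 mpf it had 52.95 to 85.2 CPM in csf1rDM fish, 0 to 34.4 CPM in il34-/- fish and 129.8 to 222 CPM in control fish.

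The members held a small share of all counts in csf1rDM fish and an intermediate share in il34-/- fish. At 33 dpf they took up 0.136, 0.385 and 0.177% of counts in csf1rDM fish and 2.36, 2.45 and 2.61% in control fish. At 1.5 mpf they took up 0.200, 0.192 and 0.179% in csf1rDM fish, 1.496, 1.52 and 1.36% in il34-/- fish and 2.29, 2.53 and 3.12% in control fish. The 3 groups of 1.5 mpf did not overlap, and the highest csf1rDM value was that of replicate 2 at 33 dpf. The control fish of 1.5 mpf helped to choose the members, which favours a lower share in il34-/- fish. Genes meeting the rule at 33 dpf alone took up 3.96, 3.55 and 3.61% of counts in il34-/- fish of 1.5 mpf. In control fish of that age they took up 4.12, 4.21 and 4.81%, and in csf1rDM fish 1.18, 1.24 and 1.1%. Since these are bulk libraries, fewer cells of a type and less RNA per cell cannot be told apart in any of the values given here.

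**Figure D1:**
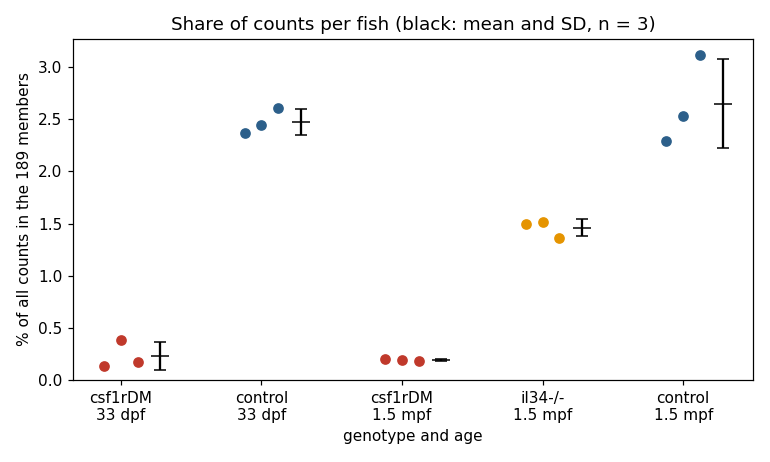
Share of all counts that fell on the 189 member genes, in percent, with 1 point per fish and the mean and SD of 3 fish in black. All csf1rDM fish lay at or below 0.385%, the il34-/- fish between 1.36 and 1.52%, and the control fish at or above 2.29%.

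All 189 members passed the filter on low counts, among 17640 genes tested. Non-overlap of csf1rDM below control fish, on which the rule rests, was found in 2.96% of the genes tested. The ratio of control to csf1rDM, in which a larger value is a lower level in csf1rDM fish, had a median of 13.9 at 1.5 mpf (quartiles 7.23 and 26.9, highest 207) and 12.3 at 33 dpf (quartiles 7.28 and 20.1, highest 222). It was at least 10 at both ages for 78 members. With 1 CPM added to each mean, the ratio of a member without counts in csf1rDM fish (23 members at 33 dpf and 24 at 1.5 mpf) follows its control level and is no bound, and ratios of members with few counts depend on the added 1 as well. In the csf1rDM fish, 9 members had no count in any of the 6 libraries, 21 had at most 3 counts in each, and 49 had counts in all 6, so that low but measurable transcript was left for many. Of the 3 csf1rDM fish at 33 dpf, replicate 2 was the highest for 104 members, and it was the highest of all 6 csf1rDM fish for 75.

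Close to the limit of 4, the members with the smallest ratio were si:ch211-69l10.2 (4.002 at 1.5 mpf), cd4-1 (4.02 at 33 dpf) and RASSF2 (4.03 at 33 dpf). Just outside were CTSD (3.98), tmem110l (3.96) and si:dkey-148a17.6 (3.91), all at 33 dpf.

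**Figure D2:**
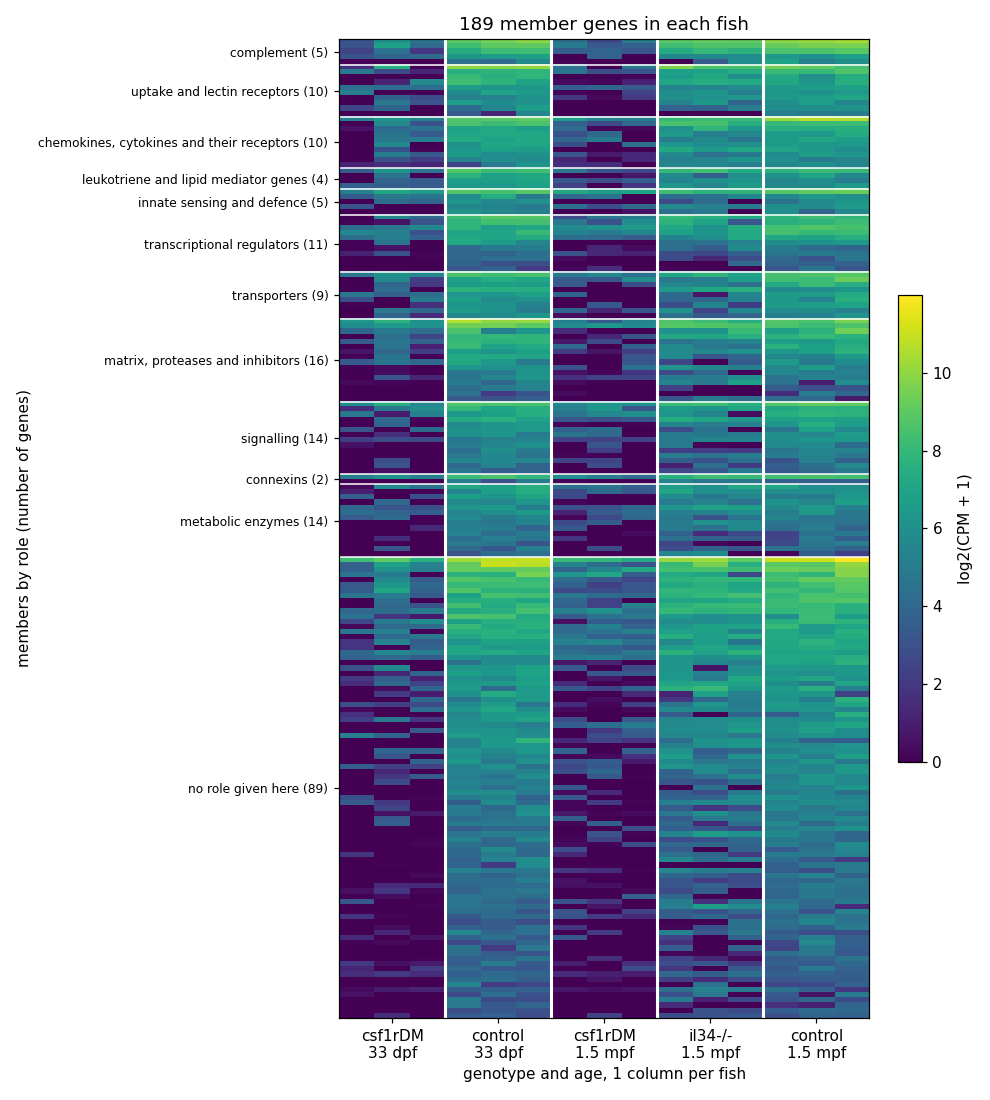
Levels of the 189 members as log2(CPM + 1), with 1 row per gene, grouped by role, and 1 column per fish. Within each role the genes are ordered by their control level. Dark rows in the csf1rDM columns are members at or near 0, and for 81 rows the 3 il34-/- columns are all below the control columns of 1.5 mpf.

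For 100 members a role could be given from their symbol, in 11 groups, and 89 had a symbol without a role stated here or no symbol. The roles are background and were assigned with the values known. Symbols in capitals are those of the table used for naming. Levels are compared between fish and not between genes, since transcript length was not taken into account.

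The 5 complement genes had median ratios of 38.6 at 1.5 mpf and 20.6 at 33 dpf. The 3 chains of C1q, the molecule that starts the classical complement pathway, are encoded next to each other in the GRCz12tu annotation. c1qc had 7.72, 71.4 and 24.6 CPM in csf1rDM fish and 497, 707 and 991 CPM in control fish at 33 dpf. It had 22.2, 5.35 and 32.2 CPM in csf1rDM fish, 489.8, 557 and 561 CPM in il34-/- fish and 969.8, 1089 and 1359 CPM in control fish at 1.5 mpf. c1qb and c1qa followed the same order of genotypes, with 29.0, 9.91 and 12.4 CPM for c1qb in csf1rDM fish, 319, 395 and 415 CPM in il34-/- fish and 584, 734 and 775 CPM in control fish of 1.5 mpf. c1qa had 11.1, 13.7 and 7.90 CPM in csf1rDM fish, 169.6, 251 and 211 CPM in il34-/- fish and 380.4, 395 and 478 CPM in control fish of that age. For each of the 3 chains the groups of 1.5 mpf were separate, and in il34-/- fish the means were 47.0, 54.0 and 50.4% of control for c1qc, c1qb and c1qa. None of these falls passed the quasi-likelihood test of edgeR after Benjamini-Hochberg adjustment over all genes, with adjusted p = 0.523 for c1qc, 0.694 for c1qb and 0.506 for c1qa. The terminal complement component c7b was nearly absent from csf1rDM fish, at no more than 0.130 CPM, whereas il34-/- fish had 0, 10.0 and 58.0 CPM and control fish of 1.5 mpf 124, 35.5 and 61.9 CPM. The il34-/- fish were thus widely spread for c7b and overlapped with control fish. c5ar1, the receptor of the complement fragment C5a, had 47.6, 50.5 and 55.0 CPM in il34-/- fish and 90.5, 65.0 and 107 CPM in control fish, and did not exceed 16.6 CPM in csf1rDM fish.

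The uptake and lectin receptors contained the member with the largest ratio. stab1, a scavenger receptor of macrophages and sinusoidal endothelium, had 0, 0.0658 and 0.0768 CPM in csf1rDM fish and 263, 192 and 241 CPM in control fish at 33 dpf. It had 0, 0.0656 and 0.094 CPM in csf1rDM fish, 94.7, 150.1 and 61.7 CPM in il34-/- fish and 163, 59.0 and 173 CPM in control fish at 1.5 mpf. No csf1rDM library exceeded 0.0940 CPM, whereas il34-/- fish overlapped with control fish and averaged 77.7% of their level. mrc1b, a mannose receptor gene, had 2.18, 178 and 0.0768 CPM in csf1rDM fish and 1041, 861 and 1042 CPM in control fish at 33 dpf, replicate 2 again being the highest csf1rDM fish. At 1.5 mpf mrc1b had 22.5, 0 and 26.8 CPM in csf1rDM fish, 850.1, 400.4 and 359.9 CPM in il34-/- fish and 666, 516 and 336 CPM in control fish. Thus mrc1b was low in csf1rDM fish while il34-/- and control fish overlapped, with a log2 fold change of -0.04 (SE 1.62) for il34-/- over control.

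Receptors for dying cells were less uniform. havcr1, a phosphatidylserine receptor gene of the TIM family, had 23.4, 6.56 and 8.09 CPM in csf1rDM fish, 108, 122 and 171 CPM in il34-/- fish and 276, 262 and 413 CPM in control fish of 1.5 mpf, without overlap. mertka, encoding a receptor tyrosine kinase for engulfment of apoptotic cells, had 4.65, 13.6 and 0 CPM in csf1rDM fish and 17.7, 44.6 and 105 CPM in control fish at 33 dpf. At 1.5 mpf it had 0, 0.0328 and 0 CPM in csf1rDM fish, 12.6, 13.1 and 32.0 CPM in il34-/- fish and 55.6, 63.8 and 73.2 CPM in control fish. The il34-/- fish again lay between the other genotypes for both genes. cd22, a sialic acid-binding lectin gene best known from B cells, was at 0 in the 3 csf1rDM fish of 1.5 mpf and had 0, 27.2 and 8.06 CPM in those of 33 dpf. illr3, encoding a C-type lectin receptor, had no count in any csf1rDM fish or any il34-/- fish, against 9.71, 1.46 and 43.3 CPM in control fish of 33 dpf and 34.3, 29.8 and 30.4 CPM in those of 1.5 mpf. With 3 counts per library as the floor, illr3 in csf1rDM fish was at least 112-fold below the control mean over both ages. In il34-/- fish it was at least 110.5-fold below the control mean of 1.5 mpf. Over the 10 genes of this group, il34-/- fish averaged between 0 and 118% of control, with a median of 67.8%.

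Chemokine and cytokine genes included the single member called in il34-/- fish. CMKLR1, the gene of a chemerin receptor that directs leukocyte migration, had 37.5, 74.3 and 40.1 CPM in csf1rDM fish and 434, 481 and 531 CPM in control fish at 33 dpf. It had 96.8, 38.7 and 33.3 CPM in csf1rDM fish, 256, 296 and 289 CPM in il34-/- fish and 1172, 1722 and 1527 CPM in control fish at 1.5 mpf. All il34-/- fish lay below all control fish and above all csf1rDM fish. CMKLR1 was lower in il34-/- than in control fish, with a log2 fold change of -2.51 (SE 0.39) and an adjusted p = 0.0155 by edgeR's quasi-likelihood test. This call was lost when control replicate 2 or 3 of 1.5 mpf, or il34-/- replicate 2 or 3, was left out, with edgeR adjusted p between 0.058 and 0.0804 and log2 fold changes between -2.55 and -2.34. Receptor genes of the ccr12 family behaved otherwise. ccr12b.2 had no count in the csf1rDM fish of 1.5 mpf, and had 157, 91.6 and 133 CPM in il34-/- fish and 127, 83.2 and 56.6 CPM in control fish. ccr12a had 11.7, 5.91 and 16.6 CPM in csf1rDM fish, 370.0, 358 and 190.1 CPM in il34-/- fish and 262, 287 and 298 CPM in control fish of 1.5 mpf. For both genes il34-/- and control fish overlapped, and the treatment of reads that fit several copies of such families is not given in the sources used here.

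The chemokine genes ccl34b.1 and ccl34a.4 reached no more than 2.00 and 7.43 CPM in any csf1rDM fish. In il34-/- fish of 1.5 mpf ccl34b.1 had 43.3, 44.9 and 34.2 CPM, against 48.3, 63.8 and 44.8 CPM in control fish. ccl34a.4 had 36.2, 43.4 and 78.6 CPM in il34-/- fish and 65.6, 29.8 and 42.6 CPM in control fish, with overlap. CSF3R, the receptor gene for the granulocyte factor G-CSF, and il6r, a receptor chain of interleukin 6, are also expressed in neutrophils. CSF3R had 8.06, 0.853 and 1.60 CPM in csf1rDM fish, 51.7, 21.3 and 28.2 CPM in il34-/- fish and 56.0, 100.2 and 74.5 CPM in control fish at 1.5 mpf. il6r had 17.3, 0.197 and 0.188 CPM in csf1rDM fish, 67.7, 230.5 and 81.3 CPM in il34-/- fish and 190.3, 174 and 190.3 CPM in control fish at 1.5 mpf. For il6r, il34-/- replicate 2 lay above all control fish and the other il34-/- fish below them.

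Of the 4 genes of leukotriene and lipid mediator metabolism, no gene had all il34-/- fish below all control fish, beside 9.03% of all genes tested. With 4 genes, none is close to that share. LTA4H, which encodes the hydrolase that makes leukotriene B4, had 25.8, 7.81 and 5.08 CPM in csf1rDM fish, 255, 330.0 and 162 CPM in il34-/- fish and 199, 291 and 260.5 CPM in control fish of 1.5 mpf. ALOX5AP, encoding the activating protein of 5-lipoxygenase, averaged 107% of control in il34-/- fish, and LPCAT2, which encodes an acyltransferase of platelet-activating factor synthesis, 142%. The leukotriene B4 receptor gene LTB4R averaged 49.6% and had 50.1, 11.9 and 62.7 CPM in il34-/- fish and 68.3, 134 and 48.9 CPM in control fish. The csf1rDM fish reached at most 74.0, 12.3, 13.5 and 22.4 CPM for LTA4H, ALOX5AP, LPCAT2 and LTB4R.

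The ratios between control and csf1rDM fish of innate sensing genes had medians of 5.05 at 1.5 mpf and 5.53 at 33 dpf over 5 genes. NRROS, which encodes a regulator of latent TGF-beta and of reactive oxygen species in myeloid cells, remained at 38.1, 142 and 96.9 CPM in csf1rDM fish and 441, 351 and 477 CPM in control fish at 33 dpf. At 1.5 mpf it had 157, 96.5 and 122 CPM in csf1rDM fish, 309, 207 and 222 CPM in il34-/- fish and 461, 544 and 589 CPM in control fish. ACOD1, the gene of the enzyme that makes itaconate, had 9.40, 27.3 and 23.3 CPM in csf1rDM fish and 54.8, 171 and 31.1 CPM in control fish at 33 dpf. At 1.5 mpf ACOD1 had 14.6, 21.7 and 0 CPM in csf1rDM fish, 19.1, 22.0 and 44.9 CPM in il34-/- fish and 47.9, 87.7 and 59.6 CPM in control fish. Its il34-/- fish thus overlapped with csf1rDM fish of that age. The neighbouring genes tlr5a and tlr5b encode receptors for bacterial flagellin. tlr5b did not exceed 0.470 CPM in any csf1rDM fish, against 72.3, 44.1 and 34.9 CPM in control fish at 33 dpf, and had 19.0, 27.2 and 0 CPM in il34-/- fish and 56.6, 14.2 and 45.3 CPM in control fish at 1.5 mpf. tlr5a had 0, 17.7 and 14.0 CPM in csf1rDM fish at 33 dpf and no count in those of 1.5 mpf, against 5.46, 17.7 and 0 CPM in il34-/- fish and 22.0, 52.2 and 81.4 CPM in control fish of that age.

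Among 11 transcriptional regulators, zeb2a, whose product is a zinc finger repressor that acts in myeloid cells, had 0.0989, 0.479 and 7.37 CPM in csf1rDM fish and 228, 324 and 345 CPM in control fish at 33 dpf. At 1.5 mpf zeb2a had 26.0, 7.22 and 58.2 CPM in csf1rDM fish, 215, 121 and 8.70 CPM in il34-/- fish and 194, 226 and 298 CPM in control fish, so that its ratio was 7.64 at 1.5 mpf and 82.2 at 33 dpf. PRDM1, the gene of the repressor Blimp-1, had 0, 0.0328 and 0 CPM in csf1rDM fish, 20.6, 22.2 and 38.9 CPM in il34-/- fish and 59.6, 70.7 and 87.4 CPM in control fish at 1.5 mpf, without overlap of il34-/- and control fish. FOSL2, an AP-1 subunit gene, and cited4a, encoding a transcriptional coactivator, had il34-/- means of 38.6 and 34.6% of control. NAB1, a corepressor gene of EGR factors, was one of the members lowest in il34-/- fish, with 0.137, 0.0711 and 0 CPM against 7.99, 23.8 and 7.86 CPM in control fish of 1.5 mpf.

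Transporter genes had a median of 21.7% of control in il34-/- fish over 9 genes. All il34-/- fish lay below all control fish for 7, beside 81 of all 189 members and 9.03% of all genes tested. These control fish helped to choose the members, which favours such counts, and the roles were assigned with the values known. slc3a2a, the heavy chain gene of several amino acid transporters, had 27.8, 46.7 and 22.3 CPM in csf1rDM fish, 134, 229 and 114 CPM in il34-/- fish and 351, 394 and 459 CPM in control fish at 1.5 mpf. SLC16A9, a monocarboxylate transporter gene, had 25.8, 33.6 and 102 CPM in il34-/- fish and 318, 289 and 621 CPM in control fish of 1.5 mpf. abcg2a, which encodes an efflux transporter, had 42.5, 42.0 and 20.9 CPM in il34-/- fish and 163, 288 and 176 CPM in control fish. The exceptions were ATP7A, a copper transporter gene, and atp1a3a, a subunit gene of the sodium-potassium ATPase. ATP7A had 66.5, 4.27 and 47.2 CPM in il34-/- fish and 53.8, 62.6 and 35.9 CPM in control fish, with overlap. atp1a3a had no count in csf1rDM fish of 1.5 mpf, 86.6, 139 and 197 CPM in il34-/- fish and 48.5, 54.7 and 73.1 CPM in control fish. The il34-/- level of atp1a3a lay above all control fish of 1.5 mpf and was 239.9% of their mean. At 33 dpf the control fish had 214, 186 and 175 CPM of atp1a3a. None of the 9 passed edgeR's test in il34-/- fish. For slc3a2a the log2 fold change was -1.44 (SE 0.40) with an edgeR adjusted p = 0.145.

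The group of matrix proteins, proteases and inhibitors held 16 members. f13a1b, the gene of the coagulation factor XIII A chain, which macrophages are known to produce, had 77.1, 208 and 69.3 CPM in csf1rDM fish and 1630.4, 1015 and 1129 CPM in control fish at 33 dpf. At 1.5 mpf f13a1b had 37.6, 9.32 and 41.1 CPM in csf1rDM fish, 410.1, 313 and 179.7 CPM in il34-/- fish and 462, 379.6 and 763 CPM in control fish. TGFBI, encoding a matrix adhesion protein, had 54.4, 84.5 and 52.1 CPM in csf1rDM fish, 449.6, 432 and 369.6 CPM in il34-/- fish and 386, 289 and 402 CPM in control fish of 1.5 mpf. Thus the il34-/- fish overlapped with control fish for TGFBI, at 116% of their mean. MMP14, a membrane-bound metalloproteinase gene, had 16.1, 0.0328 and 12.23 CPM in csf1rDM fish, 50.4, 28.0 and 21.6 CPM in il34-/- fish and 199, 108 and 177 CPM in control fish, at 20.6% of the control mean in il34-/- fish. The cathepsin L gene ctsl.1 was at 4.64, 0 and 10.2 CPM in il34-/- fish and 84.9, 27.8 and 56.5 CPM in control fish. ITGA3, an integrin chain gene, had no count in il34-/- fish, at least 57.4-fold below the control mean of 1.5 mpf. adam8a, which encodes a leukocyte disintegrin protease, had 43.4, 27.6 and 114 CPM in il34-/- fish and 21.7, 0.999 and 58.5 CPM in control fish, with overlap. Both members named MFAP4 (microfibril-associated glycoprotein 4, a macrophage marker in zebrafish) showed the order csf1rDM, il34-/-, control at 1.5 mpf. ENSDARG00000090783 had 0, 1.64 and 8.09 CPM in csf1rDM fish, 151, 132 and 185 CPM in il34-/- fish and 208, 260.4 and 202 CPM in control fish. ENSDARG00000088745 had 3.38, 0.558 and 3.48 CPM in csf1rDM fish, 52.7, 44.3 and 65.5 CPM in il34-/- fish and 79.4, 115 and 218 CPM in control fish. The 2 share a symbol, and reads may have been divided between them.

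Signalling genes included RASSF2, a Ras-association domain gene, with 45.9, 76.2 and 68.5 CPM in csf1rDM fish, 274, 311 and 185 CPM in il34-/- fish and 434, 557 and 514 CPM in control fish of 1.5 mpf. GAB1, an adaptor gene of receptor tyrosine kinases, had 36.9, 82.1 and 7.99 CPM in csf1rDM fish, 92.0, 72.2 and 135 CPM in il34-/- fish and 141, 204 and 194 CPM in control fish. tec, a non-receptor tyrosine kinase gene, had 75.2, 42.1 and 0.339 CPM in il34-/- fish and 182, 228 and 206 CPM in control fish. For these 3 genes all il34-/- fish lay below all control fish, as for 8 of the 14 genes in the group. This stands beside 81 of all 189 members and 9.03% of all genes tested. The neuropilin gene nrp1b reached at most 0.130 CPM in csf1rDM fish, and had 31.8, 21.4 and 33.0 CPM in il34-/- fish and 33.4, 40.4 and 26.3 CPM in control fish of 1.5 mpf.

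Metabolic enzyme genes had a median of 89.7% of control in il34-/- fish over 14 genes, with values from 7.71 to 663%. The il34-/- mean was above the control mean for 6 of them, among them GSTM3, a glutathione transferase gene, at 173% and SHMT2, the gene of mitochondrial serine hydroxymethyltransferase, at 198%. The highest value belonged to CHST15, a sulfotransferase gene, and rested on uneven fish, with 44.6, 56.2 and 0 CPM in il34-/- fish and 0.114, 11.3 and 3.75 CPM in control fish. The connexin gene gja12.2 was at or near 0 in csf1rDM fish, no higher than 0.130 CPM, and had 39.9, 23.5 and 23.3 CPM in il34-/- fish and 12.3, 10.7 and 12.3 CPM in control fish of 1.5 mpf.

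Other members with high control levels were selenop and lgals3bp.1. selenop, encoding the selenium carrier selenoprotein P, had 275, 241 and 151 CPM in csf1rDM fish, 1143, 1220.2 and 521 CPM in il34-/- fish and 2071, 2142 and 4093 CPM in control fish of 1.5 mpf. lgals3bp.1, encoding a galectin-3 binding protein, had 40.2, 17.8 and 7.43 CPM in csf1rDM fish, 276, 766 and 186 CPM in il34-/- fish and 485, 460.0 and 1095 CPM in control fish. il34-/- fish lay below all control fish for selenop, and overlapped with them for lgals3bp.1. sb:cb81 had 13.0, 44.5 and 139 CPM in csf1rDM fish, 333, 358 and 311 CPM in il34-/- fish and 653, 596 and 870.3 CPM in control fish of that age, without overlap. ENSDARG00000038587, which has no symbol, had 75.2, 145 and 10.5 CPM in csf1rDM fish, 162, 134 and 5.31 CPM in il34-/- fish and 304, 222 and 909.6 CPM in control fish. Its csf1rDM and il34-/- fish overlapped, and so it was not intermediate in every il34-/- fish.

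Other members with large ratios were low in csf1rDM fish, and some of them had almost no counts there. zgc:64065 reached at most 0.130 CPM in csf1rDM fish, and had 38.0, 63.5 and 82.2 CPM in il34-/- fish and 60.0, 49.2 and 75.6 CPM in control fish of 1.5 mpf. si:ch211-8c17.4 reached 1.28 CPM in csf1rDM fish, and had 76.5, 46.6 and 34.2 CPM in il34-/- fish and 138, 121 and 215 CPM in control fish. FABP7, a fatty acid-binding protein gene, reached 3.29 CPM in csf1rDM fish. It had 1.23, 113 and 35.9 CPM in il34-/- fish and 80.7, 82.0 and 4.105 CPM in control fish. The 3 genes differed in il34-/- fish, with overlap for zgc:64065 and FABP7 and none for si:ch211-8c17.4. pyroxd2, encoding a mitochondrial oxidoreductase-like protein, reached 2.18 CPM in csf1rDM fish. It had 9.97, 0 and 13.7 CPM in il34-/- fish and 10.4, 41.1 and 184 CPM in control fish. ENSDARG00000086947 had 132, 134 and 167 CPM in il34-/- fish and 276, 396 and 439.6 CPM in control fish. NPC2, whose product carries cholesterol out of lysosomes, had 0, 177 and 21 raw counts in csf1rDM fish and 170, 96 and 158 in control fish of 33 dpf. The 177 counts came from the deepest library, of 106374902 counts. In CPM all csf1rDM fish lay below all control fish, as for every member. At 1.5 mpf NPC2 had 0.39, 0.459 and 0 CPM in csf1rDM fish, 7.92, 12.6 and 6.32 CPM in il34-/- fish and 17.2, 33.1 and 23.3 CPM in control fish. For the members without a count in any of the 6 csf1rDM fish, csf1rDM fish were at least 46.2-fold (CHST15) to at least 112-fold (illr3) below the control mean. Among them were CCN4 (at least 82.7-fold), STXBP5 (at least 71.2-fold), SERPINE3 (at least 70.6-fold), zbtb4 (at least 49.5-fold) and ADAMTS15 (at least 47.1-fold). These bounds do not hold for each control fish. CHST15 had 0.114 CPM in control replicate 1 of 1.5 mpf, under the floor of 0.342 CPM in that library.

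**Figure D3:**
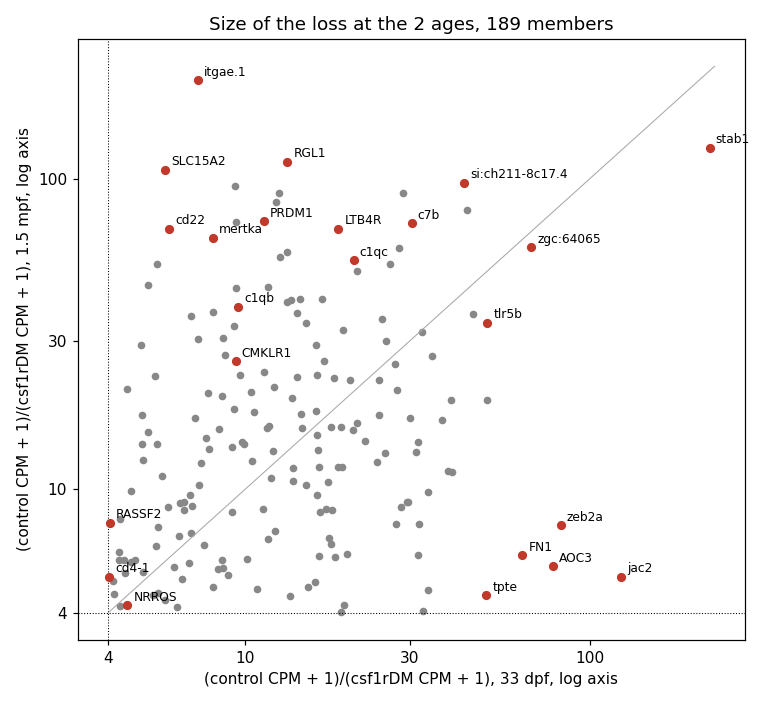
Ratio of control to csf1rDM CPM (1 added to each mean) at 33 dpf and at 1.5 mpf on log axes, with 1 point per member, the limit of 4 as dotted lines and equal ratios as the grey line. Named members are red, with stab1 at 126 (1.5 mpf) and 222 (33 dpf), and itgae.1 at 207 and 7.28. Members at 0 in csf1rDM fish of one age, such as jac2, are placed by their control level and the added 1.

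The ratio differed between the ages for single members. Ages were compared for the 124 members with at least 10 counts in the csf1rDM fish of each age, and the ratio was larger at 1.5 mpf for 74 of them. itgae.1, an integrin alpha E gene, had a ratio of 207 at 1.5 mpf and 7.28 at 33 dpf, and DAB2, the gene of an endocytic adaptor, 89.9 and 12.5 at these ages. The ratio was smaller at the later age for others. FN1, the fibronectin gene, had 6.12 at 1.5 mpf and 63.7 at 33 dpf, and AOC3, an amine oxidase gene, 5.64 and 78.1. These differences follow from values the rule used and were not tested.

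The rule set no condition on the change with age within a genotype, but it used the values of both ages, so that the counts of calls between ages are a description and nothing is drawn from them. In csf1rDM fish, 2 members were called higher at 1.5 mpf than at 33 dpf by edgeR, where 0.159% of all genes tested were called in that direction. tpte, which encodes a transmembrane phosphatase, had 11.2, 19.3 and 30.9 CPM in csf1rDM fish of 1.5 mpf and no count in any csf1rDM fish of 33 dpf, including the deepest library. jac2 had 1.56, 4.43 and 2.63 CPM in csf1rDM fish of 1.5 mpf and likewise no count at 33 dpf. Neither call was made when the groups compared were fitted alone. The call of jac2, but not that of tpte, was also lost with a replicate block and with thinned counts (edgeR adjusted p = 0.0685 and 0.119). Leaving out csf1rDM replicate 2 of 33 dpf likewise ended the call of jac2 only (edgeR adjusted p = 0.0888).

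No member was called lower at 1.5 mpf in csf1rDM fish by edgeR, against 0.0567% of all genes. At an unadjusted p under 0.05, 55 members differed (10.9% of all genes). Of these, 28 were lower (4.21% of all genes) and the rest higher. DESeq2 called 22 members lower and 20 higher, and 5.52% of all genes in either direction. The median log2 difference over the members was -0.11 in csf1rDM fish, with 0 over all genes tested, and -0.07 over the 180 members with a count when 29 members at 0 at one of the ages were set at their bound. Without csf1rDM replicate 2 of 33 dpf the median was 0.45, so its sign rested on that fish.

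In control fish, 2 members were called higher at 1.5 mpf than at 33 dpf by edgeR, against 0.743% of all genes tested. CMKLR1 had 1172, 1722 and 1527 CPM at 1.5 mpf and 434, 481 and 531 CPM at 33 dpf, a log2 fold change of 1.85. cd4-1, which encodes the T cell coreceptor Cd4 and is also expressed in zebrafish macrophages, had 141, 144 and 176 CPM at 1.5 mpf and 68.1, 49.2 and 51.0 CPM at 33 dpf, a log2 fold change of 1.69. The ages did not overlap for either gene. Leaving out single control fish ended the call of cd4-1 in each of 6 cases and that of CMKLR1 in 5 of them, with log2 fold changes between 1.5 and 2.0. The call of CMKLR1 was also lost with library totals only and with a replicate block (edgeR adjusted p = 0.052 and 0.0593). That of cd4-1 was lost when the groups compared were fitted alone (edgeR adjusted p = 0.0617). No member was called lower at 1.5 mpf by edgeR, against 0.431% of all genes. At an unadjusted p under 0.05, 9 members differed (4.76%, beside 9.21% of all genes), 2 of them lower. DESeq2 called 5 members higher and 0 lower, and 4.89% of all genes in either direction. In CPM, 28 members had all control fish of 1.5 mpf above those of 33 dpf (6.79% of all genes), and 14 had them below (13.3% of all genes). The median log2 difference over members was 0.23, beside 0.05 over all genes. With library totals as the only scaling the medians were -0.01 and -0.17, so the sign of the member median turned with the scaling while its distance from all genes was 0.18 and 0.16.

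The il34-/- fish had no part in choosing the members, but the control fish they were set against had, and such a choice by itself favours lower values in il34-/- fish. The mean in il34-/- fish was below the control mean of 1.5 mpf for most members, with a median of 50.4% of control (quartiles 31.0 and 87.2%). The corresponding median over 9792 genes tested with at least 10 CPM in control fish was 102%. The mean was under 50% of control for 93 members and above control for 34. All 3 il34-/- fish lay below all 3 control fish for 81 of 189 members, beside 9.03% of all genes tested, and above them for 5, beside 11.2% of all genes. The 5 were atp1a3a, SHMT2, susd1, FBXO22 and gja12.2. The csf1rDM fish entered the choice as well, which favours higher values in il34-/- than in csf1rDM fish. With that limit, the lowest il34-/- fish lay above the highest of the 6 csf1rDM fish for 116 members, beside 7.9% of all genes, and the highest il34-/- fish was at or below the highest csf1rDM fish for 5.

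**Figure D4:**
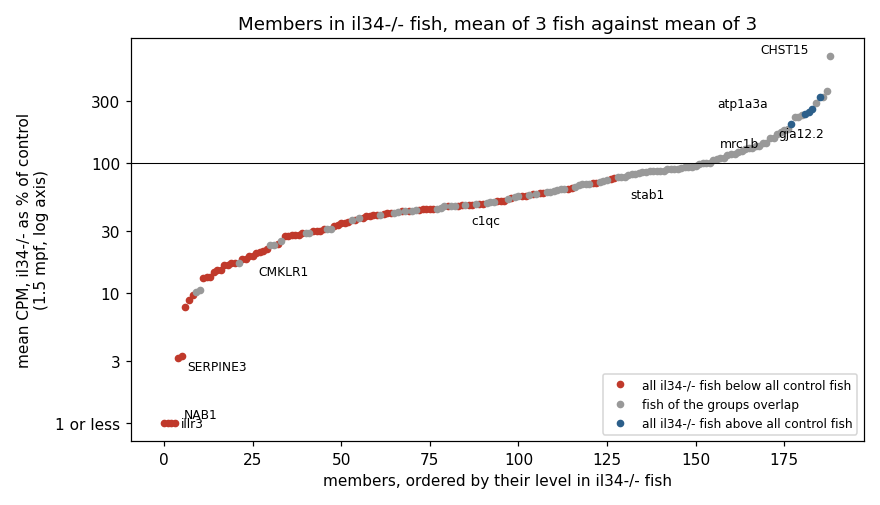
Mean CPM in il34-/- fish as a percentage of the mean in control fish of 1.5 mpf on a log axis, with members ordered from lowest to highest and values under 1% drawn at 1. Red points (81 members) have all il34-/- fish below all control fish, blue points (5 members) have them above, and grey points overlap. The line at 100 marks equal means.

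By edgeR's test, 1 member (CMKLR1) was called lower in il34-/- fish, beside 0.323% of all genes tested (0.244% with library totals as the only scaling), and none was called higher, beside 0.363% of all genes (0.493% with that scaling). At an unadjusted p under 0.05, 18 members differed, all lower (9.52% of members). Over all genes tested, 11.3% had such a p, 6.47% in the lower direction. DESeq2 called 13 members lower and 0 higher, and 6.20% of all genes in either direction. The median log2 fold change over the members was -1.10 (quartiles -1.75 and -0.33), beside -0.12 over all genes. It was below 0 for 157 of 189 members, beside 54.2% of all genes tested. With the 3 members at 0 in il34-/- fish set at their bound the median remained -1.10.

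To read il34-/- fish against control fish that had no part in the choice, the rule was applied again without each control fish of 1.5 mpf in turn, and il34-/- fish were then set against the fish left out. The rule without control replicate 1, 2 or 3 chose 197, 199 and 207 genes. Their median log2 ratio of il34-/- mean to the fish left out was -0.67, -0.59 and -0.75, where the median of all genes tested was -0.04, 0.19 and 0.25. The il34-/- mean was lower than in the fish left out for 73.6, 66.3 and 67.2% of the genes chosen, beside 51.3, 39.3 and 37.7% of all genes. The csf1rDM fish of 1.5 mpf, which did enter the choice, had medians of -3.47, -3.43 and -3.67 for these genes. The median of the genes chosen lay below that of all genes with each fish left out.

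Genes chosen by the rule at 33 dpf alone gave another picture. The 690 genes meeting it at that age included 182 of the members, and 689 were tested. In il34-/- fish of 1.5 mpf their median log2 fold change was -0.19, near the -0.12 of all genes. By edgeR 2 were called lower and 4 higher, beside 0.323 and 0.363% of all genes. In csf1rDM fish of 1.5 mpf their median was -1.43, beside 0 for all genes, and 63 were called lower and 0 higher, where 1.2% of all genes were called lower. The reverse choice, at 1.5 mpf alone, gave 565 genes, of which 564 were tested, with a median of -1.91 in csf1rDM fish of 33 dpf and 70 called lower and 1 higher, where 1.34% of all genes were called lower (1.95% with library totals as the only scaling). The comparisons at 1.5 mpf share their control fish.

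The members of the rule were read in the same way in single csf1rDM and control fish that had been left out. When 1 csf1rDM fish was left out, the rule chose 193 to 216 genes, and the level in that fish lay below the control mean of its age for nearly all of them, from 199 of 204 (replicate 2 at 1.5 mpf) to 198 of 199 (replicate 3 at 1.5 mpf). These were 97.55 to 99.5% of the genes chosen, beside 53.5 to 61.5% of all genes tested. The control fish of that age did enter the choice, which by itself favours lower values in the fish left out. The median CPM in the fish left out was 7.91 for csf1rDM replicate 2 at 33 dpf and between 0.0989 and 4.55 for the other csf1rDM fish. Control fish left out had medians between 41.6 and 58.2 CPM for the genes chosen without them.

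A few members were at or near 0 in il34-/- fish too. illr3, si:ch211-133n4.12 and ITGA3 had no count in any il34-/- fish. si:ch211-133n4.12 had 12.3, 24.2 and 29.9 CPM in control fish of 1.5 mpf, so that il34-/- fish were at least 77.7-fold below the control mean. SERPINE3, a serine protease inhibitor gene, had 0.137, 0.0356 and 1.58 CPM in il34-/- fish and 19.96, 27.4 and 8.44 CPM in control fish. At the high end were CHST15, ENSDARG00000106099, si:ch211-69l10.2, susd1 and jac2. susd1, encoding a sushi domain protein, had 46.3, 19.5 and 34.3 CPM in il34-/- fish and 18.7, 9.44 and 3.05 CPM in control fish of 1.5 mpf. jac2 had 18.6, 69.5 and 79.4 CPM in il34-/- fish and 35.6, 12.1 and 9.85 CPM in control fish, with overlap. ENSDARG00000106099 had 33.9, 106.2 and 56.6 CPM in il34-/- fish and 37.2, 16.2 and 1.76 CPM in control fish, and si:ch211-69l10.2 36.9, 9.24 and 26.0 CPM and 10.2, 5.90 and 6.22 CPM. None of the 5 passed edgeR's test in il34-/- fish, with adjusted p between 0.542 (jac2) and 0.912 (si:ch211-69l10.2). By control level, the median percentage of control in il34-/- fish was 55.1% for the 95 members at or above and 47.4% for the 94 below the median level of 65.9 CPM.

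**Figure D5:**
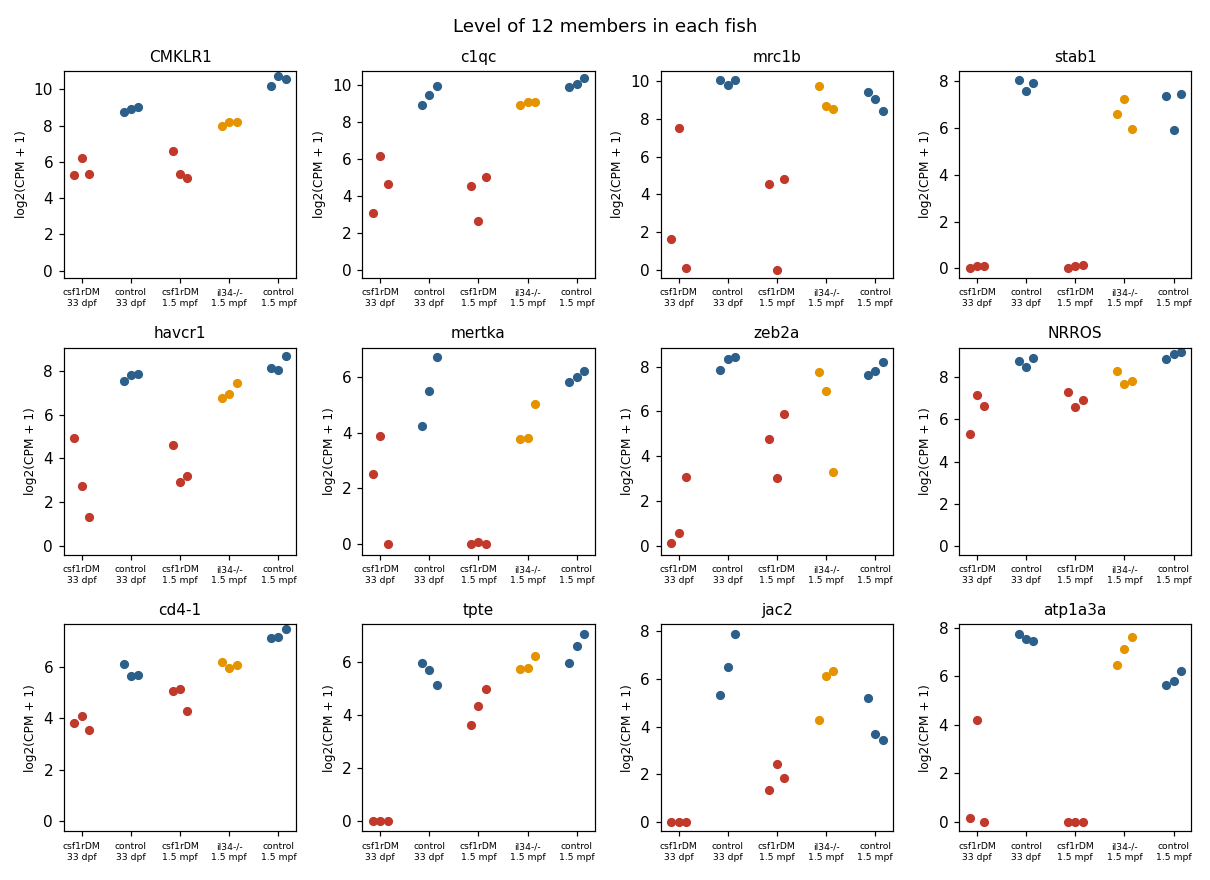
Levels of 12 members as log2(CPM + 1), with 1 point per fish in red for csf1rDM, orange for il34-/- and blue for control. The il34-/- fish lie between the other genotypes of 1.5 mpf for CMKLR1, c1qc, havcr1, mertka, NRROS and cd4-1, overlap with control fish for mrc1b, stab1, zeb2a and jac2, and lie above them for atp1a3a, while tpte and jac2 are at 0 in csf1rDM fish of 33 dpf.

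Of 22 lists of cell type and pathway genes, 8 held members, 20 members in all. The macrophage list held 11 members and the 4 genes left out of the rule, and calls in csf1rDM fish are given for list genes that the rule neither chose nor left out. Taking out the members removes genes chosen as low in csf1rDM fish, which by itself leaves fewer lower calls among the rest. These calls therefore do not show how a whole list behaved. Of 20 such genes on the macrophage list, edgeR called 3 lower and 1 higher in csf1rDM than in control fish at 33 dpf (1.34 and 1.71% of all genes), and 3 lower and 1 higher at 1.5 mpf (1.2 and 0.437% of all genes). In il34-/- fish 2 of the 20 were called lower (0.323% of all genes). The median log2 fold change in il34-/- fish was -0.80 over all tested genes of the macrophage list and -0.57 without members, and -0.97 and -0.46 for the microglia list, beside -0.12 for all genes. Lists of other cells reached lower medians, with -1.31 for metaphocyte and epithelial genes and -1.09 for 9 osteoclast genes.

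The microglia list held 5 members (c1qa, c1qb, c1qc, havcr1 and ccl34b.1). Of its 14 tested genes outside the rule, edgeR called 2 lower and 2 higher in csf1rDM fish at 33 dpf (1.34 and 1.71% of all genes). At 1.5 mpf it called 4 lower and 0 higher (1.2 and 0.437% of all genes). The list for phagocytosis and engulfment held 4 members (havcr1, cd22, mertka and stab1). Of its 23 tested genes outside the rule, edgeR called 0 lower and 3 higher in csf1rDM fish at 33 dpf. At 1.5 mpf it called 1 lower and 1 higher, beside the same shares of all genes. Over all 28 tested genes of this list, members included, edgeR called 2 lower and 3 higher at 33 dpf. At 1.5 mpf these were 6 lower and 1 higher, and the rule fixed part of the lower calls. The lysosome list of 40 tested genes held ctsl.1 and NPC2, and the lipid handling list NPC2.

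Markers of other cells moved with the genotype as well. Of the 22 lists, the summed CPM of csf1rDM fish lay below that of all control fish for 9 and above it for 3 at 33 dpf, and below for 11 and above for 2 at 1.5 mpf. In il34-/- fish it lay below for 10 and above for 2. The lists below control fish in each comparison were those for macrophages, microglia, phagocytosis and engulfment, and erythrocytes. The erythrocyte list holds no member, and edgeR called none of its 5 tested genes in these comparisons. The other lists named hold members, which the rule chose as low in csf1rDM fish, so their lower sums there follow in part from the choice. How often sums of other genes would lie apart was not tested. The list of 21 metaphocyte and epithelial genes, none of which was at 0 in all fish, summed to 4635 to 4795 CPM in csf1rDM fish and 2099 to 2308 CPM in control fish at 33 dpf. At 1.5 mpf it summed to 3641 to 4569 CPM in csf1rDM fish, 2083 to 2258 CPM in il34-/- fish and 2605 to 3442 CPM in control fish. The member cd4-1, which the authors name in their metaphocyte signature, is on this list and was low in csf1rDM fish, against the direction of the sum. Without cd4-1, edgeR called 5 of the list's 20 tested genes higher and 0 lower in csf1rDM fish at 33 dpf (1.71 and 1.34% of all genes). At 1.5 mpf it called 2 higher and 0 lower (0.437 and 1.2% of all genes). With cd4-1 included, 1 gene was called lower at each age. The sums of 12 neutrophil genes overlapped between genotypes at 33 dpf, at 1704 to 2485 CPM in csf1rDM fish and 2009 to 2535 CPM in control fish. At 1.5 mpf they were 1977 to 2182 CPM in csf1rDM fish, 2074 to 2508 CPM in il34-/- fish and 2683 to 3126 CPM in control fish. Dendritic cell genes summed to 17083 to 24808 CPM in csf1rDM fish and 6614 to 10295 CPM in control fish at 33 dpf. At 1.5 mpf they summed to 23098 to 29082 CPM in csf1rDM fish, 12830 to 15520 CPM in il34-/- fish and 16171 to 21760 CPM in control fish. Of the 9 tested, edgeR called 3 higher and 0 lower in csf1rDM fish at 33 dpf (1.71 and 1.34% of all genes). At 1.5 mpf it called 0 in either direction. The dendritic cell list names antigen presentation genes (mhc2dab, cd74a and cd83) that the authors reported in all mpeg1+ populations sorted from skin. Proliferation genes summed to 1517 to 1889 CPM in csf1rDM fish and 2965 to 5096 CPM in control fish at 33 dpf. At 1.5 mpf their sums in csf1rDM fish (1433 to 1763 CPM) overlapped with control fish (1094 to 1655 CPM), and il34-/- fish had 3099.9 to 4247 CPM. Sums of iridophore, xanthophore and endothelial genes were lower in csf1rDM fish without overlap at both ages. Of 11 xanthophore genes tested, edgeR called 1 lower at each age (1.34% of all genes at 33 dpf and 1.2% at 1.5 mpf). It called no iridophore or endothelial gene. At 33 dpf iridophore genes had 146.5 to 319 CPM in csf1rDM fish and 506 to 614 CPM in control fish. Xanthophore genes had 274 to 365 and 557 to 833 CPM, and endothelial genes 0.297 to 22.8 and 91.5 to 204 CPM. Melanophore genes, none of which was tested, overlapped, with 0 CPM in csf1rDM fish and 0 to 8.31 CPM in control fish. At 1.5 mpf iridophore genes had 152 to 318 CPM in csf1rDM fish and 377 to 431 CPM in control fish. Xanthophore genes had 373 to 403 and 436 to 471 CPM at that age, and endothelial genes 32.3 to 53.9 and 78.8 to 229 CPM. The median log2 fold change over the 11 xanthophore genes tested was 0.03 at 1.5 mpf and -1.02 at 33 dpf. The part of these cells in the levels of the members was not tested.

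Of 139 members matched to 1 gene of the GRCz12tu annotation by symbol, 9 lay within 3 protein-coding genes of another member. These formed 4 runs, namely the C1q chains, tlr5a with tlr5b, cyp2k8 with si:ch211-8c17.3, and zgc:174904 with si:ch211-264f5.2.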

How the data were processed

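RNA from GFP+ cells of single fish was amplified by the authors with SMART-seq V4 and sequenced as paired reads of 75 bp. The authors deposited 1 table of whole-number counts for 15 libraries mapped to GRCz10, without normalization. The submitters' processing notes name CASAVA 1.8, cutadapt, STAR 2.5.4b, Cufflinks 2.2.1, HTSeq 0.11.0 and edgeR, and the treatment of reads with several hits is not given in the sources used here. No column was left unused and no libraries were identical.

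Groups were taken from the sample labels. The members and the lists were chosen with earlier results of these data known, and roles were assigned after the values were seen. Symbols came from a table that named 27000 of 35117 identifiers and 174 of 189 members. CPM used library totals. Counts were fitted in R 4.3.3 with edgeR 4.0.16 (filterByExpr, TMM, robust glmQLFit and glmQLFTest, 1 coefficient per group over all 15 fish), and p-values were adjusted over 17640 genes by Benjamini-Hochberg at 0.05. The procedure was tested on simulated data. Alternatives were DESeq2 1.42.0 and other scalings, filters, groups, thinned counts, a replicate block and leaving out each fish. Choices without single fish or at 1 age read in il34-/- fish were added after seeing the data. Members described are the 12 with the highest control CPM, the 12 with the largest ratio, those called, the 5 lowest and 5 highest in il34-/- fish, those on a marker list, those at the limit of the rule and those of 1 family. Others were picked for their role after their values were seen. Sequences were not analysed here. Tables and figures were made with pandas 2.3.3 and matplotlib 3.10.9.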

Additional observations from a re-analysis of the deposited data

How the results depend on the processing

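The rule gave 193 to 216 genes without single fish, 105 with a ratio of 8, 690 at 33 dpf alone and 565 at 1.5 mpf alone, and within 1.5 times of 189 under the other 5 alternatives. In il34-/- fish the number of members called was 0 to 1 without single fish, 2 with the groups compared fitted alone and 13 with DESeq2. Of the 689 tested genes of the rule at 33 dpf alone, 6 were called (0.686% of all genes). The median log2 fold change was -1.17 to -0.87 without single fish, -0.99 with library totals only and -0.19 for the genes of 33 dpf alone. Between the ages of control fish, calls were 0 to 1 without single fish, 1 with library totals only, 1 with the groups compared alone and 5 with DESeq2, with medians of 0.12 to 0.33 without single fish and -0.012 with library totals only. Between the ages of csf1rDM fish, calls were 2 to 6 without single fish, 0 with the groups compared alone and 42 with DESeq2. Their medians were -0.50 to 0.45 without single fish, 0 with thinned counts, 0 with DESeq2 and -0.35 for the 102 members tested when these groups were fitted alone.

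Marker list genes called in csf1rDM fish at 33 dpf, members included, numbered 36 of 241, 19 of them lower (3.05% of all genes in either direction). They numbered 19 to 33 without single fish, 15 with the groups compared alone and 64 with DESeq2. At 1.5 mpf they numbered 28 of 241, 24 of them lower (1.63% of all genes). They numbered 15 to 27 without single fish and 58 with DESeq2. The shares of all genes given here are those of the main edgeR fit. For csf1rDM against control fish the shares called by DESeq2 are not given, so its 64 and 58 calls have no base beside them. The rule chose the members on this contrast, so part of these counts was fixed by the choice. In il34-/- fish 6 of 241 were called, 5 of them lower (0.686% of all genes), with 0 to 5 without single fish and 11 with thinned counts. DESeq2 called 37 of the 241 there, and it called 6.20% of all genes. The cause of these differences was not tested. Replicate numbers did not pair the fish, with correlations of deviations between -0.03 and 0.08. With the replicate block, 1 member was called in il34-/- fish, 1 between the ages of control fish and 1 between those of csf1rDM fish, and 3 list genes in il34-/- fish. Differences that 3 fish per group cannot resolve may remain uncalled, and levels under 3 counts per library lie below the floor taken here.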
